A study of Mus musculus with 30 samples.

Results

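Axon guidance ligands and receptors were followed in mouse Bruce4 embryonic stem cells (ESCs) on their way to becoming neuromesodermal progenitors (NMPs), the caudal progenitors of spinal cord and trunk mesoderm. The genes were chosen by name, as every row of the count table that carries a semaphorin, plexin, neuropilin, Eph receptor, ephrin, Slit, Robo, netrin or Unc5 symbol, or Dcc. This gave 68 of 54134 rows, of which 53 had a mean of 2 CPM or more (each library's counts scaled to a common total) in at least 1 group of libraries and are described here. Of these 53 genes, 44 passed the filter on low counts and were tested. The other 9 (Sema3b, Sema4a, Sema6d, Plxnc1, Plxnd1, Ephb1, Robo4, Unc5c and Unc5d) are given by their levels, and 15 stayed below 2 CPM in every group (Sema3d, Sema3f, Sema3g, Sema6b, Sema7a, Plxna4, Plxnb3, Epha3, Epha6, Epha8, Ntn4, Ntn5, Robo3, Unc5a and Dcc). On the CPM scale used for this choice, the highest group means just inside the limit were 2.70 for Sema3b, 2.83 for Robo4 and 2.85 for Unc5d, and those just outside it were 1.85 for Epha8, 1.61 for Sema3f and 1.56 for Sema6b.

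RNA was sequenced in 30 libraries, 3 replicates of each of 10 groups, which are wildtype and Nr6a1-/- cells at 5 stages. All groups were grown with FGF2 from the start of differentiation. Libraries labelled d2 were taken before Wnt activation, and d2.5 and d3 libraries 12 h and 24 h after the Wnt agonist CHIR99021 was added. The d4 libraries continued in FGF2 and CHIR99021, and the d4G libraries also had the growth factor Gdf11 for the last 24 h. The Nr6a1-/- cells were 1 CRISPR/Cas9 clone with deletions in the exon that encodes part of the DNA-binding domain of this nuclear receptor, so that genotype and clone cannot be told apart in any comparison below. The sources used here do not say that replicates are separate differentiations, so p-values measure the spread between these libraries, which may be partly technical.

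Axon guidance systems work as pairs of a cue and its receptor. Secreted class 3 semaphorins bind neuropilins, which signal through plexins, whereas other semaphorins are mostly membrane-bound and bind plexins directly. Eph receptor tyrosine kinases meet ephrins on the neighbouring cell, Slit proteins bind Robo receptors, and netrins bind Dcc and Unc5 receptors. In early embryos the same genes are known for setting tissue boundaries, for directing migration of neural crest and mesoderm, and for patterning somites and vessels, before any axon grows. Of the 53 genes described, 15 were semaphorins, 9 plexins or neuropilins, 11 Eph receptors, 8 ephrins, 6 Slit or Robo genes and 4 netrin or Unc5 genes.

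Promoter sequences are shown for 5 members that the results turn on, Sema3a and Nrp1 because they were lower in Nr6a1-/- cells at 3 stages, and Nrp2, Epha2 and Sema3e because they held letters of a searched motif. Each run is the stretch before the RefSeq transcript start, 5' to 3', on build GRCm38.p6, and capitals mark a motif match. The runs of Sema3a and Nrp1 lie inside the GENCODE gene spans given below, past the annotated gene start and not before it.
Sema3a, chr5:13396534-13396783, plus strand: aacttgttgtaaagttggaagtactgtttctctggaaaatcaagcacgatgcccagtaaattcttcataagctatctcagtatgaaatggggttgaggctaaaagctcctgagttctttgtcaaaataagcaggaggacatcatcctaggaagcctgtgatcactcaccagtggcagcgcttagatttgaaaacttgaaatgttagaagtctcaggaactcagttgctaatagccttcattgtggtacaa
Nrp1, chr8:128358823-128359072, plus strand: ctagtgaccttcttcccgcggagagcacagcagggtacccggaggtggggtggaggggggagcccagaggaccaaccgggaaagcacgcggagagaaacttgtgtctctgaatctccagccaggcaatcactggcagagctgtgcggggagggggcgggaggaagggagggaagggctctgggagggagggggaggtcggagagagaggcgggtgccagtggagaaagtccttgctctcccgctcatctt
Nrp2, chr1:62703067-62703284, plus strand: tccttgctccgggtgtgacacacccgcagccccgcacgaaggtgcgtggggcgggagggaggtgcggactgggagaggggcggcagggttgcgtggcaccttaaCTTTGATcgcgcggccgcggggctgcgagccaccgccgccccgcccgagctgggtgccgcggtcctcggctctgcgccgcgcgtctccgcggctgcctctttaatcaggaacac
Epha2, chr4:141300971-141301220, plus strand: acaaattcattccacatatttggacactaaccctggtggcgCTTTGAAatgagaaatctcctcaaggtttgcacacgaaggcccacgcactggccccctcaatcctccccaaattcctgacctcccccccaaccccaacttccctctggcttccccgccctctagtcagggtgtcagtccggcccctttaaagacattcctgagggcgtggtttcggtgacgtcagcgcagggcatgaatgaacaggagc
Sema3e, chr5:14025026-14025275, plus strand: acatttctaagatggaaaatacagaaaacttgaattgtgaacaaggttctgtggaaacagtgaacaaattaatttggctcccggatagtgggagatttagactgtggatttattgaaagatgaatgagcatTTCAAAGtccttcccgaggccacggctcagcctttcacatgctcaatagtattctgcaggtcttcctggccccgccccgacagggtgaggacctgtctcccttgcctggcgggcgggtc
RefSeq promoters of 300 bases were given for 46 of the 53 genes, 61 promoters in all. Both strands were searched for TCAAGGTCA, letters that Nr6a1 is known to bind, and for CTTTGAT and CTTTGAA, letters bound by the Tcf/Lef factors of the Wnt pathway. TCAAGGTCA was in 0 of the 61 promoters, against 0.423% of all 32851 promoters. CTTTGAT was in the Nrp2 promoter, 146 bases before the start, and in 3.73% of all promoters. CTTTGAA was in the Epha2 promoter, 209 bases before the start, and on the other strand of the Sema3e promoter, 119 bases before the start, and in 5.14% of all promoters. These are matches of letters in a short window and not measured binding sites.

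Library totals ran from 1570714 to 3688197 counts with a median of 2366002, and 0 counts of a gene leave room for 0.813 to 1.91 CPM, depending on the library, by counting error alone. Levels below are CPM scaled by TMM normalisation factors, listed for replicates 1, 2 and 3 in order, and were not divided by gene length because the reads come from 3' ends. They were compared between samples and not between genes. Nr6a1 itself was not lower in the Nr6a1-/- libraries (a mean of 221 CPM against 96.9 CPM in wildtype cells at d4), and 3' counts of a gene with an internal deletion do not check the genotype. Markers of NMPs and caudal cells summed to 638 to 702 CPM in d4 wildtype and 804 to 944 CPM in d4 Nr6a1-/- libraries, with all 8 markers at a mean of 2 CPM or more in both groups, and to 610.6 to 613.6 and 430.5 to 473.9 CPM at d4G. Endoderm markers summed to 133 to 219.97 against 85.6 to 90.5 CPM at d4 and to 152 to 175 against 76.2 to 99.3 CPM at d4G. Of the 6, 5 reached a mean of 2 CPM in wildtype and 3 in Nr6a1-/- cells at both. The sum does not by itself show endoderm, as in d2 Nr6a1-/- libraries it was 548 to 711 CPM with 1 of the 6 at 2 CPM or more. The d4 and d4G sums were not split by gene. Mesoderm markers, which include genes of mesodermal progenitors such as Tbx6 and Aldh1a2, differed between genotypes. At d4, 7 of the 7 were at a mean of 2 CPM or more in wildtype and 6 in Nr6a1-/- cells. The sums, not split by gene here, were 122 to 143 CPM in d4 wildtype and 785 to 806 CPM in d4 Nr6a1-/- libraries. At d4G these markers summed to 93.3 to 109.6 against 182 to 202 CPM. Their part in the results below was not tested, and in bulk RNA more cells of a type and more RNA per cell cannot be told apart. Endothelial markers stayed at or below 9.22 CPM in sum in all libraries, and neuronal markers at d4 summed to 52.7 to 97.6 CPM in wildtype and 48.1 to 81.3 CPM in Nr6a1-/- libraries. The library d4 wildtype replicate 2 stood apart, with pluripotency and epiblast markers at 649 CPM in sum against 100.0 and 92.1 CPM in replicates 1 and 3. Counts of calls that involve d4 wildtype cells are also given without it, as are the named calls that were lost without it. Without it the d4 log2 fold changes between genotypes were -3.62 for Sema3a, -3.55 for Nrp1, -4.02 for Sema3c and -1.94 for Epha5, all still called. Among d4 Nr6a1-/- libraries, replicate 1 differed most from the others. The chi-square per gene between the counts of 2 libraries was 6.38 and 7.59 for replicate 1 against replicates 2 and 3, and 2.82 between replicates 2 and 3. The number of genes called between genotypes at d4 without d4 Nr6a1-/- replicate 1 is not given here.

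The number of guidance genes called between genotypes was larger at each stage from d2 to d4, and smaller again with Gdf11. The share called over all tested genes took the same course, at 4.07%, 6.45%, 10.8%, 18.9% and 7.92% at d2, d2.5, d3, d4 and d4G. This course is thus not particular to the members. A gene is called when its false discovery rate (FDR) from the quasi-likelihood test of edgeR, adjusted over all 12149 genes tested, is below 0.05, and all FDR values below are of this kind. Of the 44 tested genes, 1 was called higher and 1 lower in Nr6a1-/- cells at d2, where 1.35% of all tested genes were called higher and 2.72% lower. At d2.5 the counts were 5 higher and 2 lower (2.86% and 3.59% of all genes), and at d3 they were 6 higher and 4 lower (4.49% and 6.29%). At d4, 14 genes were higher and 8 lower, against 9.72% and 9.17% of all genes in the same directions. At d4G, 3 were higher and 7 lower (3.28% and 4.63%). The median log2 fold change of the members stayed close to 0 at every stage (0.08 at d4 against 0.02 over all genes), so that members moved in both directions. At d4 the calls were densest among semaphorins, 6 higher and 3 lower of 12, and Eph receptors, 5 higher and 2 lower of 10. Without d4 wildtype replicate 2, 19 of the 44 genes were called at d4 (11 higher, 8 lower). The counts at d2 and d2.5 depend on single libraries, as 4 genes were called at d2.5 without wildtype replicate 1 or without Nr6a1-/- replicate 2, and at d2 1 gene was called when a single wildtype library or Nr6a1-/- replicate 1 was left out and 0 without Nr6a1-/- replicate 2. At d4G, 6 genes were called when the model held the 2 groups compared alone. Across the 5 stages 30 of the 44 genes were called at least once, 16 only higher and 14 only lower, and 0 were higher at a stage and lower at another. These patterns were not counted over all tested genes, so they cannot be read as particular to the members.

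**Figure D1:**
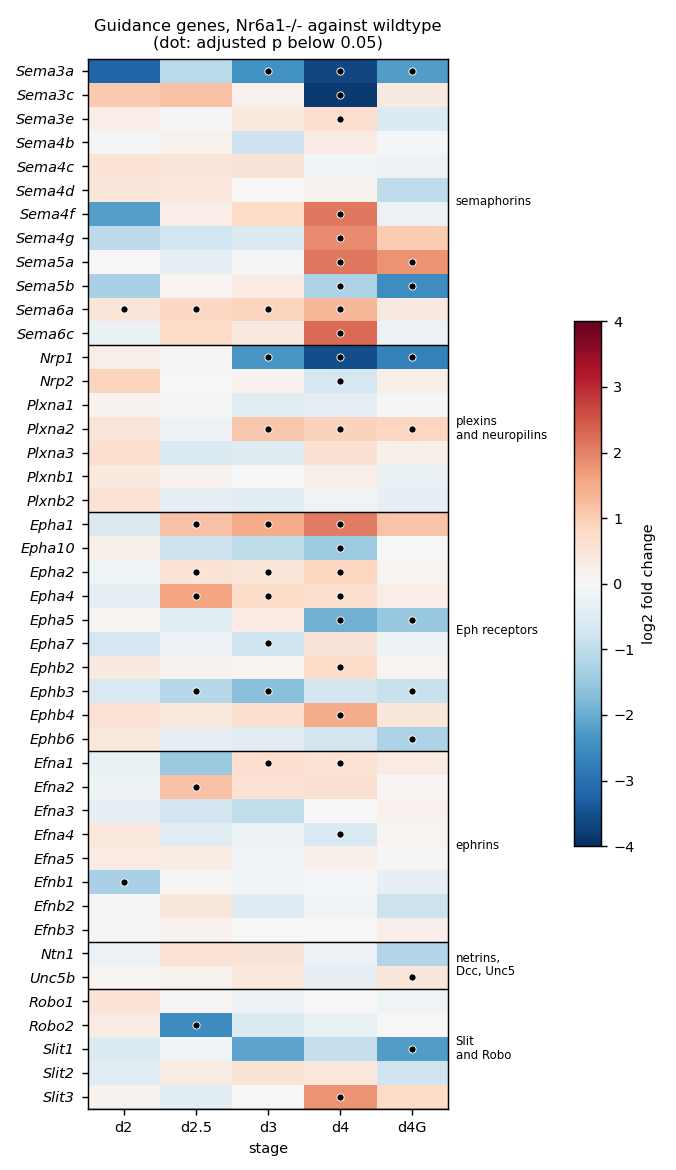
Log2 fold change of the 44 tested guidance genes (rows, by family) in Nr6a1-/- against wildtype cells at each of 5 stages (columns), red higher and blue lower in Nr6a1-/- cells, with a dot where the adjusted p was below 0.05. The d4 column holds 22 dots, and the Sema3a, Sema3c and Nrp1 cells there are the deepest blue. Fitted values of genes with no count in a group, such as Sema3a at d2, depend on the prior count.

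Sema3a, a secreted semaphorin that repels axons and migrating cells through Nrp1 and plexin A receptors, was lower in Nr6a1-/- cells from d3 on. Its gene lies at chr5:13125414-13602565 (GRCm38, plus strand). At d3 it stood at 4.79, 4.57 and 9.93 CPM in wildtype and 0.797, 1.70 and 1.11 CPM in Nr6a1-/- libraries. At d4 wildtype levels reached 33.3, 33.2 and 29.5 CPM, while Nr6a1-/- levels were 3.01, 2.40 and 2.11 CPM. Sema3a passed the filter on low counts only through these d4 wildtype libraries, the high group at d4. Its d4 call is thus not independent of how the genes were chosen. The groups did not overlap at either stage, and each wildtype library at d4 stood far above every Nr6a1-/- library. The log2 fold change was -2.42 at d3 (SE 0.49, FDR = 0.000775) and -3.64 at d4 (SE 0.33, FDR = 1.2e-10). With Gdf11 the levels were 4.62, 4.84 and 2.93 CPM in wildtype and 0, 1.26 and 1.28 CPM in Nr6a1-/- libraries (-2.24, SE 0.62, FDR = 0.0165). This d4G difference rests on few counts, 29 against 5 in all, a 4.97-fold difference per library size (95% interval from counting, 1.90 to 16.4). It was lost without wildtype replicate 1 (-2.17, FDR = 0.05005), wildtype replicate 2 (-2.12, FDR = 0.0666) or Nr6a1-/- replicate 1 (-1.66, FDR = 0.123). At d2 the 3 Nr6a1-/- libraries held no Sema3a count and the wildtype libraries stood at 0, 1.05 and 0.342 CPM, at or under the limit that 0 counts allow.

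Nrp1 (chr8:128358604-128503363, plus strand) encodes neuropilin-1, the ligand-binding receptor for Sema3a and also a co-receptor for VEGF. It was lower in Nr6a1-/- cells at the same 3 stages. At d3 the levels were 7.19, 7.31 and 4.37 CPM in wildtype and 1.99, 0.425 and 1.11 CPM in Nr6a1-/- libraries, and at d4 they were 15.1, 11.2 and 7.45 against 0.430, 1.92 and 0.423 CPM. At d4G wildtype libraries stood at 10.6, 16.5 and 9.63 CPM and Nr6a1-/- libraries at 0.955, 2.53 and 2.13 CPM. Groups did not overlap at any of these stages. The log2 fold changes were -2.34 at d3 (SE 0.52, FDR = 0.0021), -3.56 at d4 (SE 0.50, FDR = 9.79e-07) and -2.72 at d4G (SE 0.45, FDR = 3.57e-05). At d2 and d2.5 it was low in both genotypes, at 0 to 2.67 CPM, and was not called (FDR = 0.948 and 0.989). Tested genes of chromosome 8 had a median log2 fold change below 0 at every stage, -0.37 at d3, -0.29 at d4 and -0.31 at d4G over 655 genes, whereas the other autosomes had medians of -0.01 to 0.08 at d4. The change of Nrp1 was larger than this shift, and what part of it the shift makes up was not tested. Efnb2, the other tested member on chromosome 8, was not called between genotypes at any stage.

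Sema3c, a class 3 semaphorin known as an attractive cue for cardiac neural crest, was called between genotypes at d4 and at no other stage. Wildtype libraries there held 9.09, 8.78 and 15.5 CPM and Nr6a1-/- libraries 1.29, 0 and 0.846 CPM, with no overlap (log2 fold change -3.84, SE 0.53, FDR = 8.69e-07). The pooled counts were 105 and 5, a 15.3-fold difference per library size (95% interval from counting, 6.34 to 48.0). At d4G the genotypes overlapped, at 1.39, 3.22 and 3.35 CPM in wildtype and 4.30, 3.16 and 2.98 CPM in Nr6a1-/- libraries (FDR = 0.792). Nrp2 (chr1:62703285-62818695), the neuropilin that serves as receptor for Sema3c and Sema3f, was also lower at d4, with 55.8, 52.9 and 51.0 CPM in wildtype and 31.8, 35.6 and 30.03 CPM in Nr6a1-/- libraries. Its groups did not overlap, but the difference was smaller (-0.71, SE 0.13, FDR = 4.86e-05) than those of Sema3a and Sema3c. At d3, levels of Nrp2 were 21.1, 19.2 and 23.0 CPM in wildtype against 25.1, 26.3 and 18.8 CPM in Nr6a1-/- libraries, and it was not called (FDR = 0.681).

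**Figure D2:**
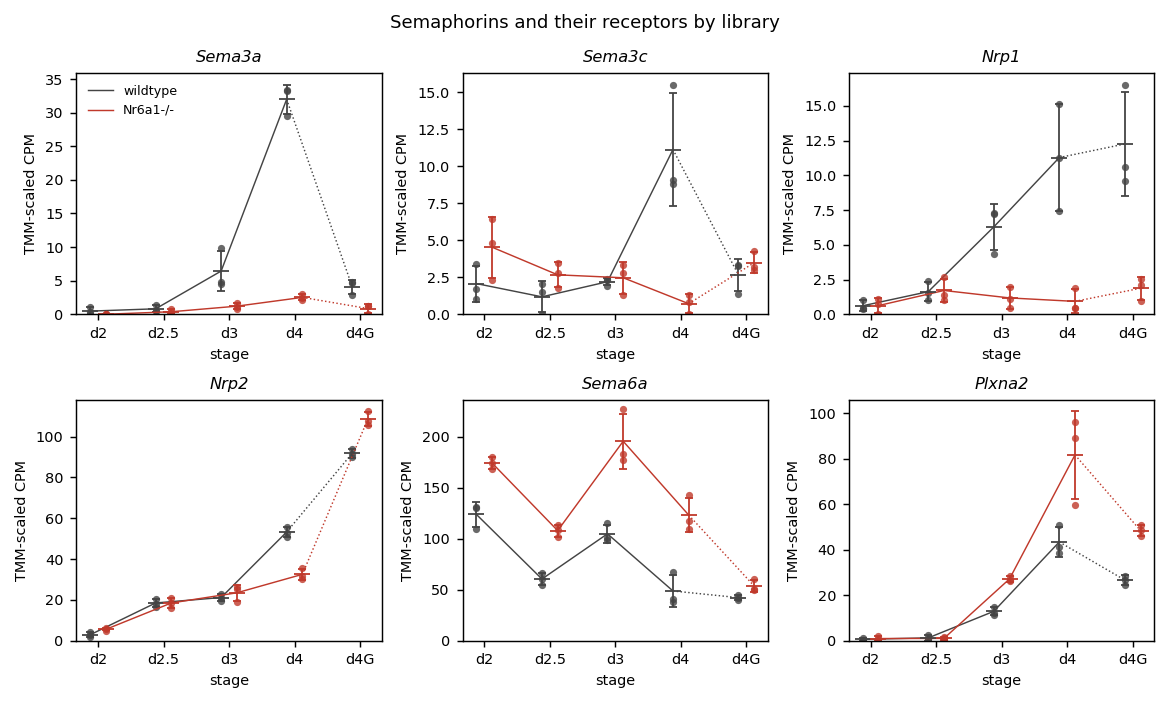
TMM-scaled CPM (vertical axis) of 6 semaphorin pathway genes at each stage (horizontal axis), with 1 point per library, short bars for the mean and SD of 3 libraries, and wildtype in grey and Nr6a1-/- in red; dotted lines join d4 to the Gdf11 arm. At d4 the wildtype points of Sema3a lie at 29.5 to 33.3 CPM and the Nr6a1-/- points at 2.11 to 3.01 CPM, while Sema6a and Plxna2 lie higher in Nr6a1-/- cells.

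The transmembrane semaphorin Sema6a and its receptor Plxna2 moved the other way. Sema6a was higher in Nr6a1-/- cells from d2 to d4. At d2.5 its levels were 60.1, 55.0 and 66.3 CPM in wildtype and 113, 102 and 109 CPM in Nr6a1-/- libraries (log2 fold change 0.84, SE 0.14, FDR = 0.000153), and at d3 115, 99.1 and 100.5 against 177, 183 and 227 CPM (0.90, SE 0.13, FDR = 5.34e-06). At d4 the wildtype libraries held 38.1, 67.2 and 40.8 CPM and the Nr6a1-/- libraries 118, 109.6 and 143 CPM (1.32, SE 0.14, FDR = 3.76e-09). No groups overlapped at these stages, and the highest wildtype value at d4 was that of replicate 2, without which the log2 fold change was 1.63. The d2 difference (109.8, 131 and 130.5 against 174, 179.9 and 169 CPM, 0.49, FDR = 0.0189) was lost without wildtype replicate 1 (0.41, FDR = 0.118) or Nr6a1-/- replicate 2 (0.47, FDR = 0.0786). At d4G, Sema6a stood at 40.2, 41.9 and 44.4 against 60.6, 50.6 and 49.4 CPM and was not called (FDR = 0.24). Plxna2 (chr1:194618218-194816869) was at most 2.52 CPM in every library until d2.5. It then stood at 14.9, 11.4 and 12.3 CPM in wildtype and 26.3, 28.4 and 26.6 CPM in Nr6a1-/- libraries at d3, and at 41.1, 38.4 and 50.7 against 59.8, 96.1 and 89.2 CPM at d4. With Gdf11 the levels were 24.5, 28.6 and 26.8 CPM in wildtype against 45.8, 48.7 and 50.7 CPM in Nr6a1-/- libraries. Every Nr6a1-/- library was above every wildtype library at the 3 stages, with log2 fold changes of 1.08 at d3 (SE 0.23, FDR = 0.00168), 0.91 at d4 (SE 0.17, FDR = 8.56e-05) and 0.86 at d4G (SE 0.19, FDR = 0.00271). The other plexins tested, Plxna1, Plxna3, Plxnb1 and Plxnb2, were called at no stage between genotypes.

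Among the remaining semaphorins, Sema5a and Sema5b, 2 transmembrane relatives with thrombospondin repeats, differed in opposite directions. Sema5a at d4 stood at 1.73, 2.74 and 2.09 CPM in wildtype and 5.59, 13.9 and 10.6 CPM in Nr6a1-/- libraries (log2 fold change 2.12, SE 0.36, FDR = 3.23e-05), and at d4G at 3.69, 2.42 and 5.44 against 15.3, 10.7 and 13.6 CPM (1.79, SE 0.34, FDR = 0.000274). Sema5b at d4G stood at 3.23, 4.03 and 4.604 CPM in wildtype and 0.955, 0.632 and 0.426 CPM in Nr6a1-/- libraries (-2.49, SE 0.68, FDR = 0.0148). Neither pair of groups overlapped, but the Sema5b libraries of Nr6a1-/- cells held 4 counts in all, and its call was lost without wildtype replicate 3 (-2.38, FDR = 0.0519) or Nr6a1-/- replicate 3 (-2.22, FDR = 0.0892). Sema4g, a class 4 semaphorin, was higher at d4, with 3.03, 3.84 and 3.87 CPM in wildtype and 12.5, 14.9 and 14.0 CPM in Nr6a1-/- libraries (1.90, SE 0.40, FDR = 0.000572). Sema6c stood at 0.865, 0 and 0.894 against 3.01, 2.88 and 2.54 CPM at d4 (2.27, FDR = 0.024), and Sema4f at 0.433, 0 and 1.19 against 3.01, 2.40 and 2.11 CPM (2.12, FDR = 0.02). Both rest on 5 wildtype counts, with ratios of pooled counts, per library size, of 5.23 (95% counting interval 1.89 to 17.9) and 4.68 (1.66 to 16.2). The Sema6c call was lost without wildtype replicate 2 (1.60, FDR = 0.142), Nr6a1-/- replicate 1 (2.21, FDR = 0.0514), replicate 2 (2.25, FDR = 0.0569) or replicate 3 (2.35, FDR = 0.0511), and the Sema4f call without wildtype replicate 2 (1.45, FDR = 0.134) or Nr6a1-/- replicate 1 (1.95, FDR = 0.0608).

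Of the 10 tested Eph receptors, 3 were called higher (Epha1, Epha2 and Epha4) and 1 lower (Ephb3) in Nr6a1-/- cells 12 h after Wnt activation. Of all tested genes, 2.86% were called higher and 3.59% lower at that stage. Epha4, a receptor that binds ephrins of both classes and marks boundaries in hindbrain and somites, was at 14.7, 16.1 and 16.1 CPM in wildtype and 45.7, 37.5 and 56.1 CPM in Nr6a1-/- libraries at d2.5. The gap narrowed on the log2 scale afterwards, with 33.1, 35.2 and 34.5 against 58.2, 50.5 and 64.2 CPM at d3 and 73.6, 69.4 and 91.5 against 124, 117 and 123 CPM at d4. Groups stayed apart at all 3 stages, and the log2 fold changes were 1.57 (SE 0.17, FDR = 7.82e-08), 0.75 (SE 0.15, FDR = 0.000415) and 0.64 (SE 0.12, FDR = 0.000137). Whether these stages differ from each other was not tested. Epha2, an ephrin-A receptor of epithelia and of the early embryo, was higher at d4, with 9.95, 9.33 and 6.85 CPM in wildtype and 12.5, 15.9 and 18.6 CPM in Nr6a1-/- libraries (0.86, SE 0.21, FDR = 0.00344). It was also called at d2.5 (0.56, SE 0.14, FDR = 0.0122) and d3 (0.50, SE 0.15, FDR = 0.0266). These smaller differences were lost without d2.5 wildtype replicate 2 (0.47) or Nr6a1-/- replicate 2 (0.49), and without d3 wildtype replicate 1 or 3 or Nr6a1-/- replicate 2 or 3 (0.45 to 0.46).

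Epha1, a receptor for Efna1, was at 3.78, 5.04 and 5.02 CPM in wildtype and 10.3, 12.2 and 8.52 CPM in Nr6a1-/- libraries at d2.5, and at 2.88, 2.74 and 5.16 against 9.57, 10.6 and 11.1 CPM at d3. By d4 it was low in wildtype libraries, at 1.73, 1.10 and 1.19 CPM, and stood at 5.59, 4.33 and 6.34 CPM in Nr6a1-/- libraries. No wildtype library reached a Nr6a1-/- library at any of the 3 stages. The log2 fold changes were 1.16 at d2.5 (SE 0.31, FDR = 0.0161), 1.495 at d3 (SE 0.32, FDR = 0.0013) and 2.03 at d4 (SE 0.42, FDR = 0.000422). The d2.5 call was lost without wildtype replicate 1 (1.03, FDR = 0.101) or Nr6a1-/- replicate 2 (1.02, FDR = 0.0856), and with DESeq2 (1.17, FDR = 0.0548). The last 2000 bases of Epha1 overlap the gene Zyx on the other strand, and as no source says whether counting used strand, reads of both cannot be told apart there. Zyx itself differed by 0.18, 0.20 and 0.58 on the log2 scale at these stages.

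Epha5, an ephrin-A receptor of developing neural tissue (chr5:84054761-84417382, minus strand), was lower in Nr6a1-/- cells at the end of the course. At d3 its levels were 21.1, 25.6 and 25.8 CPM in wildtype against 27.1, 33.1 and 31.8 CPM in Nr6a1-/- libraries, above wildtype but not called. At d4 wildtype libraries had 61.4, 57.3 and 51.6 CPM and Nr6a1-/- libraries 9.03, 14.4 and 20.7 CPM (log2 fold change -1.94, SE 0.20, FDR = 1.01e-09). At d4G the values were 12.9, 9.27 and 15.1 against 4.77, 4.43 and 3.83 CPM (-1.51, SE 0.33, FDR = 0.00175), again without overlap. Ephb3, an ephrin-B receptor, was lower at d3, with 12.9, 9.13 and 12.3 CPM in wildtype and 4.78, 2.97 and 2.95 CPM in Nr6a1-/- libraries (-1.67, SE 0.32, FDR = 0.000318). At d2.5 it stood at 8.51, 6.05 and 9.54 against 3.81, 3.48 and 3.55 CPM (-1.15, SE 0.34, FDR = 0.0329), groups that did not overlap, and this call was lost when any library of the comparison other than wildtype replicate 2 was left out (-1.19 to -1.01). Its d4G difference (17.5, 24.6 and 20.9 against 12.4, 7.59 and 13.2 CPM, -0.89, FDR = 0.0135) was lost without wildtype replicate 2 (-0.78, FDR = 0.0896) or Nr6a1-/- replicate 2 (-0.72, FDR = 0.0971). Ephb4, the receptor of Efnb2 known from veins, was higher at d4, with 16.4, 15.9 and 12.8 CPM in wildtype and 26.2, 38.5 and 60.9 CPM in Nr6a1-/- libraries (1.49, SE 0.22, FDR = 1.92e-06). Its Nr6a1-/- libraries spread widely but none reached the wildtype range. The end of Ephb4 overlaps Zan on the other strand, which differed by -0.16 on the log2 scale. Epha10, a receptor without kinase activity, stood at 9.52, 7.41 and 5.66 against 3.01, 2.88 and 2.11 CPM at d4 (-1.45, FDR = 0.0163), a call lost without wildtype replicate 1 (-1.29, FDR = 0.0602) or Nr6a1-/- replicate 3 (-1.30, FDR = 0.0863). Ephb6, another receptor without kinase activity, stood at 7.85, 7.26 and 12.1 against 1.91, 3.79 and 5.54 CPM at d4G (-1.25, SE 0.38, FDR = 0.0337), a call lost without wildtype replicate 3 (-0.99, FDR = 0.198) or Nr6a1-/- replicate 1 (-0.91, FDR = 0.226) or 2 (-1.24, FDR = 0.082).

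**Figure D3:**
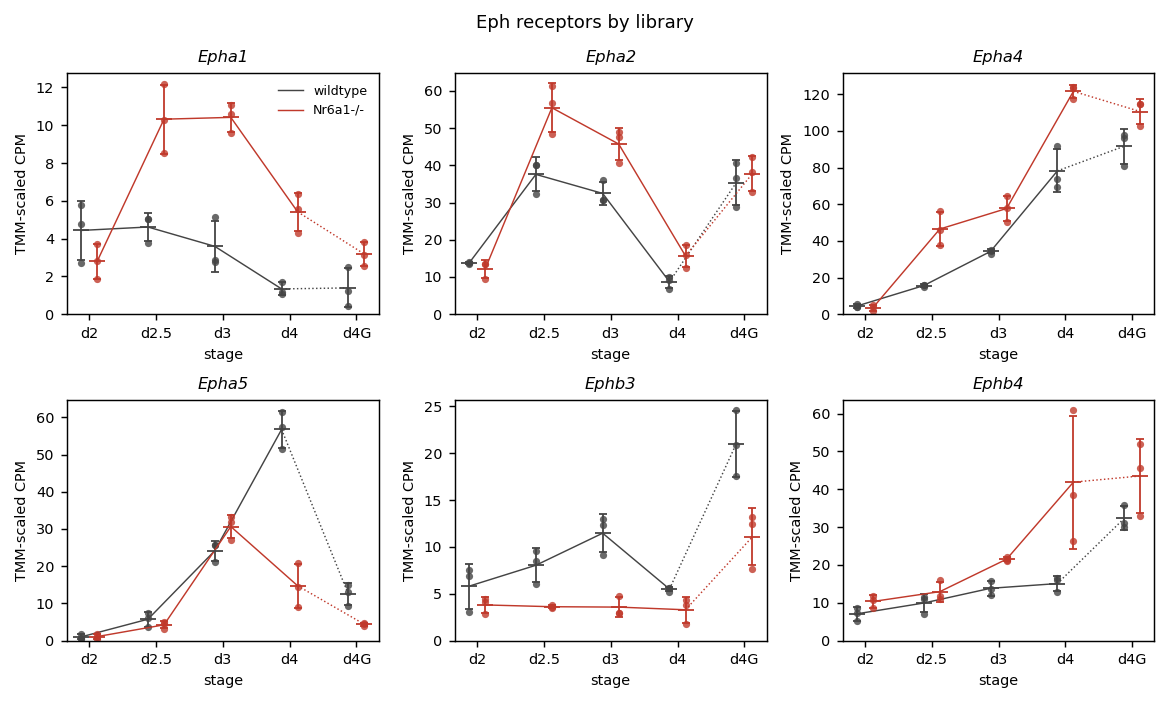
TMM-scaled CPM (vertical axis) of 6 Eph receptor genes at each stage (horizontal axis), with 1 point per library, short bars for the mean and SD of 3 libraries, and wildtype in grey and Nr6a1-/- in red; dotted lines join d4 to the Gdf11 arm. Epha1, Epha2, Epha4 and Ephb4 lie higher in Nr6a1-/- cells at d4 and Epha5 lies lower, at 9.03 to 20.7 CPM against 51.6 to 61.4 CPM.

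Of the 8 tested ephrins, the ligands of these receptors, 2 were called between genotypes at d4, 1 in each direction, against 9.72% higher and 9.17% lower of all genes. At d4G 0 of 8 were called, against 3.28% higher and 4.63% lower of all genes. Efna1, the membrane-anchored ligand of Epha1 and Epha2, stood at 37.9, 40.6 and 34.1 CPM in wildtype and 60.2, 57.7 and 59.4 CPM in Nr6a1-/- libraries at d3 (log2 fold change 0.66, SE 0.16, FDR = 0.00454), with no overlap. At d4 the levels were 48.5, 48.3 and 40.8 against 58.5, 89.4 and 60.1 CPM (0.59, SE 0.15, FDR = 0.00347), but this rests on Nr6a1-/- replicate 2, without which the value was 0.37 (FDR = 0.0992). Efna2 at d2.5 was at 9.93, 11.1 and 4.52 CPM in wildtype and 21.3, 16.3 and 20.2 CPM in Nr6a1-/- libraries (1.17, SE 0.28, FDR = 0.00772), and lost its call without wildtype replicate 3 (0.87, FDR = 0.0694). Efnb1, an X-linked ephrin, was the member called lower at d2, with 7.38, 5.27 and 6.15 CPM in wildtype and 2.80, 1.49 and 3.39 CPM in Nr6a1-/- libraries (-1.30, SE 0.37, FDR = 0.039). That call was lost without wildtype replicate 1 (-1.17, FDR = 0.135), replicate 2 (-1.38, FDR = 0.0517) or replicate 3 (-1.32, FDR = 0.104), and without Nr6a1-/- replicate 1 (-1.35, FDR = 0.0849) or replicate 2 (-0.9998, FDR = 0.233). Efna3, Efna5, Efnb2 and Efnb3 were called at no stage between genotypes.

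Of the 5 tested Slit and Robo genes, 3 were called at 1 stage each, 1 lower at d2.5, 1 higher at d4 and 1 lower at d4G. Of all tested genes, 3.59%, 9.72% and 4.63% were called in the same direction at these stages. Robo2, a receptor for Slit proteins, was lower at d2.5, with 7.57, 5.55 and 2.01 CPM in wildtype and 0.762, 0.348 and 1.42 CPM in Nr6a1-/- libraries (log2 fold change -2.52, SE 0.55, FDR = 0.00268). The groups did not overlap, but without wildtype replicate 1 the value was -2.10 with FDR = 0.0519. Slit3, a ligand known from diaphragm and heart, was higher at d4, with 1.73, 4.66 and 1.49 CPM in wildtype and 7.74, 10.6 and 11.0 CPM in Nr6a1-/- libraries (1.80, SE 0.37, FDR = 0.000463). Its highest wildtype value was that of replicate 2, and without it the log2 fold change was 2.57. Slit1, a ligand of neural tissue, was lower at d4G, with 5.54, 6.85 and 9.21 CPM in wildtype and 1.91, 0.632 and 1.70 CPM in Nr6a1-/- libraries (-2.24, SE 0.52, FDR = 0.00339). Slit1 passed the filter on low counts only through its d4G wildtype libraries, the high group of this comparison. Netrin-1, encoded by Ntn1 and known as the midline attractant for commissural axons, was called at no stage, and at d2.5 stood at 22.2, 20.2 and 20.6 against 33.9, 29.2 and 29.5 CPM (FDR = 0.124), groups that did not overlap. Its receptor Unc5b stood at 46.2, 43.9 and 36.8 against 55.4, 46.8 and 71.1 CPM at d4G (0.47, SE 0.14, FDR = 0.034). That small difference was lost under 8 of 12 alternatives, among them leaving out wildtype replicate 2 (0.48) or 3 (0.37) or Nr6a1-/- replicate 1 (0.51) or 3 (0.28).

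Wildtype cells changed their guidance genes at each step of differentiation. In the 12 h after Wnt activation (d2.5 against d2), 12 of the 44 genes were called higher and 2 lower, against 13.3% and 12.1% of all genes tested, and the members' median log2 fold change was 0.57 against 0.01 over all genes. Ntn1 went from 3.91, 4.75 and 0.342 CPM to 22.2, 20.2 and 20.6 CPM (2.94, SE 0.33, FDR = 1.37e-08), and Nrp2 from 1.74, 2.64 and 4.10 CPM to 16.6, 18.2 and 20.6 CPM (2.63, SE 0.24, FDR = 1.83e-10). Efnb1 rose by 2.09 (SE 0.24, FDR = 1.98e-08) from 5.27 to 7.38 CPM over its libraries to 24.7 to 30.6 CPM. These 3 genes encode a secreted cue, a receptor and a membrane ligand. Robo2 rose from 0 to 1.71 CPM to 2.01 to 7.57 CPM (2.53, SE 0.57, FDR = 0.00102), a value of 4.15 without d2 wildtype replicate 3. Epha2 rose from 13.5, 13.7 and 14.0 CPM to 40.2, 32.3 and 40.2 CPM (1.45, SE 0.18, FDR = 1.08e-07). Among receptors, Epha5 rose from 0.527 to 1.74 CPM to 3.53 to 7.53 CPM (2.49, SE 0.52, FDR = 0.000458) and Epha4 from 3.69 to 5.64 CPM to 14.7 to 16.1 CPM (1.79, SE 0.27, FDR = 4.21e-06). Ephb6 rose by 1.60 (SE 0.46, FDR = 0.00879), and the ligand Efna3 by 1.65 (SE 0.57, FDR = 0.0296), a call lost without d2 wildtype replicate 3 (1.17) or d2.5 wildtype replicate 2 (1.34). The 2 members that fell were Sema6a (-1.03, SE 0.14, FDR = 9.12e-07), from 109.8 to 131 CPM to 55.0 to 66.3 CPM, and Efnb2 (-0.93, SE 0.21, FDR = 0.00107), from 32.5 to 53.2 CPM to 17.7 to 25.1 CPM.

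From d2.5 to d3, 8 members were higher and 1 lower (5.91% and 5.56% of all genes). The largest rises were those of Plxna2, from 0.473, 2.52 and 0.502 CPM to 14.9, 11.4 and 12.3 CPM (log2 fold change 3.42, SE 0.47, FDR = 1.6e-06), Efna1, from 5.68, 2.52 and 4.02 CPM to 37.9, 40.6 and 34.1 CPM (3.17, SE 0.26, FDR = 3.34e-11), and Sema3a (2.93, SE 0.56, FDR = 0.000376). Epha5 rose by 2.07 (SE 0.27, FDR = 9.31e-07) and Epha4 by 1.13 (SE 0.19, FDR = 3.37e-05). Nrp1 rose by 1.89 (SE 0.51, FDR = 0.0118), a call lost without d2.5 wildtype replicate 2 (1.66). Slit3 rose by 1.53 (SE 0.50, FDR = 0.0422) and Ntn1, the member that fell, by -0.76 (SE 0.25, FDR = 0.0394), and both calls were lost when single libraries were left out, that of Ntn1 for each of the 6 (-0.86 to -0.58) and that of Slit3 for each but d3 replicate 2 (1.35 to 1.61). From d3 to d4, 7 were higher and 11 lower (9.79% and 11.3% of all genes). Sema3a rose again (2.27, SE 0.27, FDR = 8.33e-08), as did Sema3c, from 1.92, 2.28 and 2.38 CPM to 9.09, 8.78 and 15.5 CPM (2.32, SE 0.42, FDR = 8.89e-05), Nrp2 (1.33, SE 0.13, FDR = 1.42e-09) and Plxna2 (1.76, SE 0.22, FDR = 8.99e-08). The d4 wildtype libraries, through which alone Sema3a passed the filter on low counts, are the high group of this step. Its call there is thus not independent of how the genes were chosen. Sema3e, another class 3 semaphorin, fell instead, from 25.4, 23.3 and 24.6 CPM to 11.3, 11.0 and 9.24 CPM (-1.22, SE 0.19, FDR = 9.52e-06). Epha2 fell from 30.7, 36.1 and 30.6 CPM to 9.95, 9.33 and 6.85 CPM (-1.91, SE 0.19, FDR = 8.11e-10), and Ntn1 from 13.9, 9.13 and 13.9 CPM to 4.76, 4.39 and 5.07 CPM (-1.38, SE 0.30, FDR = 0.000864). Sema4f fell by 2.35 (SE 0.64, FDR = 0.00647), a call lost without d3 replicate 1 (-1.90) or d4 replicate 2 (-1.68) and at -3.77 without d4 replicate 3. Epha1 fell by 1.47 (SE 0.45, FDR = 0.0177), lost without d3 replicate 3 (-1.10) or d4 replicate 2 (-1.33) or 3 (-1.41). Without d4 wildtype replicate 2, 16 in place of 18 members were called between d3 and d4.

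Whether the course from d2 to d3 differed between genotypes was tested as an interaction. Of the 44 genes, 1 was called in each direction, against 1.19% higher and 1.09% lower of all genes. Epha1 stood at 4.77, 5.80 and 2.73 CPM in wildtype and 2.80, 3.72 and 1.88 CPM in Nr6a1-/- libraries at d2, so that groups overlapped there, whereas Nr6a1-/- levels were the higher at d3 (interaction 2.09, SE 0.51, FDR = 0.0162). Plxnb2, a plexin for class 4 semaphorins, stood at 22.6, 13.7 and 20.5 against 28.0, 30.1 and 28.2 CPM at d2 and at 27.8, 30.1 and 36.5 against 22.7, 25.5 and 22.5 CPM at d3, which is a change of order (-1.01, SE 0.24, FDR = 0.0145). Neither was stable. The Epha1 call was lost without d2 wildtype replicate 1 (2.00, FDR = 0.0546) or 2 (1.87, FDR = 0.073), or d2 Nr6a1-/- replicate 3 (1.84, FDR = 0.0662). It was also lost without wildtype replicate 1 (1.94, FDR = 0.0512) or 2 (1.91, FDR = 0.0536) of d3. The Plxnb2 call was lost without d2 wildtype replicate 2 (-0.85, FDR = 0.059) or d3 wildtype replicate 3 (-0.89, FDR = 0.0663).

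Gdf11, a TGF-beta family ligand that marks the passage from trunk to tail, was added in the d4G arm, where more guidance genes were called higher than lower in wildtype cells. Between d4 and d4G, 20 of the 44 genes were called higher and 4 lower in wildtype cells, against 14.3% and 14.5% of all genes tested, with a members' median of 0.59 on the log2 scale against 0.02 over all genes. In Nr6a1-/- cells 12 were higher and 8 lower (8.45% and 9.59% of all genes), with a median of 0.35. Both responses called 12 genes in the same direction and 1, Sema3c, in opposite directions, while 11 were called in wildtype cells alone and 7 in Nr6a1-/- cells alone. The shares of all tested genes in these 4 classes were not computed, so the counts cannot be read as particular to the members. A call in a single genotype does not show that the responses differ, and the test of that difference called 2 genes higher and 2 lower (1.17% and 1.49% of all genes), or 3 higher and 1 lower without d4 wildtype replicate 2. Cell type markers moved with Gdf11 as well. The sum of 5 neural crest markers was 7.36 to 9.60 CPM in d4 wildtype and 40.2 to 47.2 CPM in d4G wildtype libraries, nearly all of it from Ets1 (means of 7.19 and 42.2 CPM), while Sox10 had a mean of at most 1.53 CPM and Foxd3 was at 0 at d4G. It was 3.44 to 9.13 and 63.0 to 74.5 CPM in Nr6a1-/- libraries. The sum of 6 neural progenitor markers was 62.3 to 71.8 CPM at d4 and 23.4 to 36.9 CPM at d4G in wildtype libraries. Their part in the responses was not tested. The labels also give 4 of the 6 d4 libraries the same index sequence as a d4G library and 2 of the 6 the same as a d3 library. The 4 are all the wildtype libraries and Nr6a1-/- replicate 1, and the 2 are Nr6a1-/- replicates 2 and 3. How libraries were pooled for sequencing is not given in the sources used here, and any difference between pools cannot be told apart from the steps between d3, d4 and d4G. As the sharing differs between genotypes, such a difference may also enter the genotype comparison at d4, which was not tested. The d4 libraries enter the genotype comparison at d4 and the Gdf11 responses, so the values of these comparisons are not independent. Without d4 wildtype replicate 2, 20 in place of 24 members were called in the wildtype response. In the Nr6a1-/- response, 13 in place of 20 were called without d4 replicate 3 and 12 without d4G replicate 1.

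**Figure D4:**
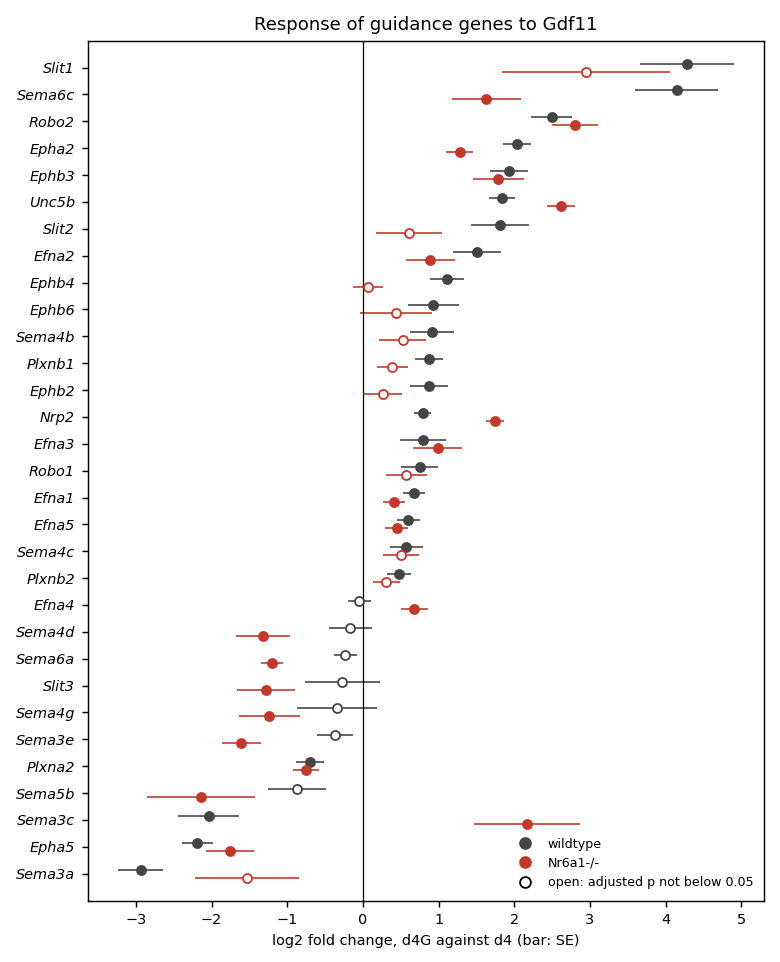
Log2 fold change of d4G against d4 (horizontal axis, bars for the SE) for each guidance gene called in either genotype (rows, ordered by the wildtype value), with wildtype in grey and Nr6a1-/- in red and open points where the adjusted p was not below 0.05. Slit1 and Sema6c lie at the high end in wildtype cells (4.28 and 4.15), Sema3a at the low end (-2.94), and the Sema3c points lie on opposite sides of 0.

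Of the 5 Slit and Robo genes, 4 were called higher with Gdf11 in wildtype cells, against 14.3% of all genes tested. Slit1 went from 0.865, 0.274 and 0 CPM at d4 to 5.54, 6.85 and 9.21 CPM at d4G (log2 fold change 4.28, SE 0.62, FDR = 1.64e-06), 22.5 times the pooled counts per library size (95% interval from counting, 7.28 to 113), as d4 held 3 counts in all. Slit1 passed the 2 CPM limit and the filter on low counts only through the d4G wildtype libraries (12, 17 and 22 counts), the high group here. Its call is thus not independent of how the genes were chosen. Slit2, the repellent cue best known at the midline, went from 2.60, 2.47 and 3.87 CPM to 13.4, 9.67 and 9.21 CPM (1.81, SE 0.38, FDR = 0.000366). In Nr6a1-/- cells the d4 and d4G levels of Slit1 were 0, 0.481 and 0 and 1.91, 0.632 and 1.70 CPM (FDR = 0.0613), and those of Slit2 1.72, 5.77 and 4.65 and 5.25, 5.69 and 7.24 CPM (FDR = 0.37). Neither ligand was called in Nr6a1-/- cells, and the difference between the responses was not called either (FDR = 0.857 and 0.331). Their receptor Robo2 rose in both genotypes, from 3.89, 3.84 and 7.15 CPM to 28.2, 28.2 and 29.3 CPM in wildtype (2.49, SE 0.27, FDR = 3.69e-09) and from 4.73, 3.36 and 4.23 CPM to 32.5, 24.0 and 30.2 CPM in Nr6a1-/- cells (2.80, SE 0.30, FDR = 3.42e-09). Unc5b, the netrin receptor that signals repulsion, rose likewise, from 12.1, 11.8 and 11.6 CPM to 46.2, 43.9 and 36.8 CPM in wildtype (1.83, SE 0.17, FDR = 1.41e-10) and from 6.88, 11.1 and 10.6 CPM to 55.4, 46.8 and 71.1 CPM in Nr6a1-/- cells (2.62, SE 0.18, FDR = 6.25e-14). Its ligand gene Ntn1 was not called in either response.

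**Figure D5:**
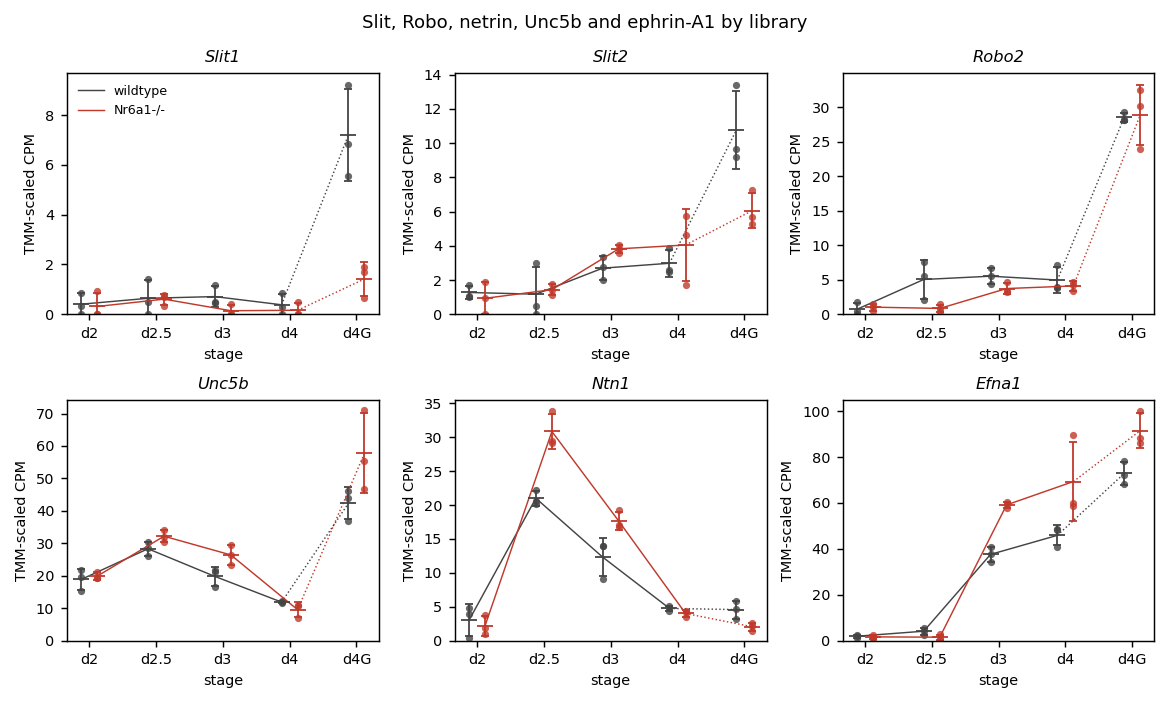
TMM-scaled CPM (vertical axis) of Slit1, Slit2, Robo2, Unc5b, Ntn1 and Efna1 at each stage (horizontal axis), with 1 point per library, short bars for the mean and SD of 3 libraries, and wildtype in grey and Nr6a1-/- in red; dotted lines join d4 to the Gdf11 arm. Robo2 and Unc5b climb in both genotypes at d4G, Slit1 reaches 5.54 to 9.21 CPM in wildtype cells, and Ntn1 peaks at d2.5.

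Sema3a and Sema3c were among the 4 members called lower in wildtype cells. Sema3a fell by 2.94 on the log2 scale in wildtype cells (SE 0.29, FDR = 1.58e-09), from 29.5 to 33.3 CPM to 2.93 to 4.84 CPM. It passed the filter on low counts only through the d4 wildtype libraries, the high group here. Its call is thus not independent of how the genes were chosen. Sema3c fell by 2.04 (SE 0.40, FDR = 0.00018), from 8.78 to 15.5 CPM to 1.39 to 3.35 CPM. In Nr6a1-/- cells, which already had little of either at d4, Sema3a was not called (FDR = 0.121) and Sema3c rose from 1.29, 0 and 0.846 CPM to 4.30, 3.16 and 2.98 CPM (2.16, SE 0.70, FDR = 0.0273). The rise rests on 5 and 21 counts, a 4.72-fold difference per library size (95% interval from counting, 1.73 to 16.0). It was lost without d4 replicate 2 (1.67, FDR = 0.108), d4 replicate 3 (2.27, FDR = 0.0552) or d4G replicate 1 (1.98, FDR = 0.102) of these cells. The difference between the 2 responses of Sema3c was 4.20 (SE 0.81, FDR = 0.00124) and stayed called under all 18 alternatives, at 3.71 to 4.87. Nrp2 rose in both genotypes, to 91.4, 89.9 and 94.2 CPM in wildtype (0.79, SE 0.11, FDR = 7.57e-07) and to 113, 106 and 108 CPM in Nr6a1-/- cells (1.75, SE 0.12, FDR = 5.62e-14). Its response was the larger in Nr6a1-/- cells (difference 0.96, SE 0.16, FDR = 0.000292), in which its d4 level was lower. Nrp1 was called in neither response (FDR = 0.728 and 0.396).

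Other semaphorins and plexins were called in both directions. Sema6c rose from 0.865, 0 and 0.894 CPM to 13.4, 10.9 and 7.12 CPM in wildtype cells (log2 fold change 4.15, SE 0.55, FDR = 3.58e-07), 19.3 times the pooled counts per library size (95% interval from counting, 7.91 to 61.3). In Nr6a1-/- cells it rose from 3.01, 2.88 and 2.54 CPM to 11.5, 6.95 and 7.66 CPM (1.63, SE 0.46, FDR = 0.00958), which was lost without d4G replicate 1 (1.38, FDR = 0.0725). Sema6c passed the filter on low counts only through the d4G libraries, the high groups of both responses. Its calls here are thus not independent of how the genes were chosen. Sema5b was called lower in Nr6a1-/- cells (-2.14, SE 0.72, FDR = 0.0335), from 3.01, 3.36 and 2.96 CPM to 0.955, 0.632 and 0.426 CPM, a call lost when any of the 6 libraries was left out (-2.49 to -1.85). Sema6a fell in Nr6a1-/- cells, from 118, 109.6 and 143 CPM to 60.6, 50.6 and 49.4 CPM (-1.20, SE 0.15, FDR = 6.88e-08), and stood at 38.1, 67.2 and 40.8 against 40.2, 41.9 and 44.4 CPM in wildtype cells, with no call (FDR = 0.288). The responses differed by -0.97 (SE 0.22, FDR = 0.00654), and by -1.29 without d4 wildtype replicate 2, the library with the high wildtype value. Its receptor gene Plxna2 fell by 0.70 in wildtype (SE 0.19, FDR = 0.00442) and by 0.75 in Nr6a1-/- cells (SE 0.17, FDR = 0.00146), and the difference of these responses was -0.05 (SE 0.26, FDR = 0.965).

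Eph receptors were called higher more often than lower in wildtype cells, 5 against 1 of 10, where 14.3% of all genes were higher and 14.5% lower. Epha2 rose from 9.95, 9.33 and 6.85 CPM to 36.5, 40.7 and 28.9 CPM in wildtype (log2 fold change 2.03, SE 0.18, FDR = 9.34e-11) and from 12.5, 15.9 and 18.6 CPM to 38.2, 32.9 and 42.2 CPM in Nr6a1-/- cells (1.28, SE 0.18, FDR = 9.12e-07). Ephb3 rose from 5.63, 5.21 and 5.66 CPM to 17.5, 24.6 and 20.9 CPM in wildtype (1.94, SE 0.25, FDR = 2.14e-07) and from 1.72, 4.33 and 3.81 CPM to 12.4, 7.59 and 13.2 CPM in Nr6a1-/- cells (1.79, SE 0.34, FDR = 0.000147). Epha5 was the exception and fell in both, from 61.4, 57.3 and 51.6 CPM to 12.9, 9.27 and 15.1 CPM in wildtype (-2.19, SE 0.20, FDR = 1.08e-10) and from 9.03, 14.4 and 20.7 CPM to 4.77, 4.43 and 3.83 CPM in Nr6a1-/- cells (-1.76, SE 0.32, FDR = 8.34e-05). No d4 and d4G groups of these 3 genes overlapped. Ephb4 rose in wildtype cells to 30.02, 35.9 and 31.0 CPM (1.11, SE 0.22, FDR = 0.000201), whereas Nr6a1-/- libraries held 26.2, 38.5 and 60.9 CPM at d4 and 52.0, 32.9 and 45.6 CPM at d4G. The difference of its responses (-1.04, SE 0.30, FDR = 0.0473) was lost under 12 of 18 alternatives, among them leaving out d4 wildtype replicate 2 (-1.09, FDR = 0.069) or d4 Nr6a1-/- replicate 3 (-0.65, FDR = 0.305). Of the ephrins, 4 of 8 were called higher in wildtype and 5 of 8 in Nr6a1-/- cells, with 0 lower in either. Of all genes, 14.3% were called higher in wildtype and 8.45% in Nr6a1-/- cells, and 14.5% and 9.59% lower. Efna2, an ephrin-A ligand, rose in wildtype from 4.33, 3.84 and 5.07 CPM to 11.5, 16.1 and 10.04 CPM (1.51, SE 0.32, FDR = 0.000453).

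The 9 described genes that did not pass the filter had low counts in every group. Of these, Plxnd1, the receptor for Sema3e known from vessels, was highest with Gdf11, at 3.23, 2.82 and 3.77 CPM in wildtype and 2.86, 3.16 and 2.98 CPM in Nr6a1-/- libraries, against 0.481 to 3.38 CPM over the 6 d4 libraries. Unc5d, a relative of Unc5b, was likewise higher with Gdf11, at 3.23, 2.02 and 1.67 CPM in d4G wildtype and 0.298 to 0.865 CPM in d4 wildtype libraries. Robo4, the Robo of endothelium, was at 1.72, 5.29 and 1.69 CPM in d4 Nr6a1-/- and 0.433, 0 and 0 CPM in d4 wildtype libraries. Endothelial markers summed to at most 2.98 CPM in these libraries, with Emcn at 0. At these levels most values are within the range that a few counts allow, and they were fitted only in the alternative without a filter, whose values for them are not used here.

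Other genes of the guidance pathways were taken from 2 lists. Of 13 tested co-receptors and other cues, the d4 test called 5 higher and 2 lower in Nr6a1-/- cells, and of 39 tested intracellular genes 10 were higher and 2 lower, against 9.72% and 9.17% of all genes. L1cam, an adhesion molecule that acts as a co-receptor for Sema3a with Nrp1, stood at 0, 0.823 and 0.894 CPM in wildtype and 10.7, 9.61 and 11.4 CPM in Nr6a1-/- libraries at d4 (log2 fold change 3.94, SE 0.43, FDR = 5.81e-09), the opposite direction to Sema3a and Nrp1. Rgma, a repulsive ligand of the netrin receptor relative Neo1, was at 13.0, 9.87 and 11.0 against 33.1, 30.8 and 31.3 CPM (1.51, SE 0.20, FDR = 2.97e-07). Dpysl3, a member of the collapsin response mediator family that works downstream of Sema3a, was the lowest of the intracellular genes relative to wildtype, at 61.0, 49.6 and 52.4 CPM in wildtype and 9.03, 4.81 and 8.88 CPM in Nr6a1-/- libraries (-2.81, SE 0.20, FDR = 2.34e-13). None of these groups overlapped. Dpysl2 and Dpysl5, of the same family as Dpysl3, were called in the opposite direction at d4, with smaller differences (0.48, FDR = 0.0162 and 0.45, FDR = 0.0178). With Gdf11, Dpysl3 rose in both genotypes, to 129, 126 and 152 CPM in wildtype (1.33, SE 0.13, FDR = 9.34e-10) and to 80.2, 74.0 and 68.6 CPM in Nr6a1-/- cells (3.27, SE 0.20, FDR = 2.05e-15), and the responses differed by 1.94 (SE 0.25, FDR = 3.47e-06). In the wildtype response to Gdf11, 15 of the 39 intracellular genes were higher and 1 lower, and 4 of the 13 co-receptors and other cues were higher and 1 lower, against 14.3% higher and 14.5% lower of all genes. In Nr6a1-/- cells these counts were 5 and 2, and 2 and 1, which is near the shares over all genes (8.45% and 9.59%).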

How the data were processed

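Bruce4 ESCs, wildtype or Nr6a1-/-, were sampled at 5 stages in 30 libraries, grouped by the genotype and stage that GEO's labels give, with the labels' replicate letters A to C called 1 to 3. The deposited values are whole-number counts per gene, which the authors made from 3'-end, poly(A)-primed libraries with molecular identifiers. The submitters' processing notes name STAR, edgeR and mm10. The counting tool, its annotation, its use of strand and whether identifiers were collapsed are not given in the sources used here. The authors' tables of fold changes and p-values for each stage were not used. Totals and the precision they give stand with the results, and intervals cover counting error only.

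Counts were fitted with edgeR 4.0.16 in R 4.3.3 (TMM factors, quasi-likelihood test, 1 model of 10 groups with 20 residual degrees of freedom, Benjamini-Hochberg adjustment over all genes) after a filter that asked for over 10 counts and over 2 CPM in 2 or more libraries of some group, which left 12149 of 54134 rows. The 12 comparisons were the genotypes at each stage, each step of the wildtype course, the Gdf11 response in each genotype and 2 interactions. The SE was taken from the log2 fold change and its F statistic. Scripts were tested on simulated data. Alternatives were other scaling, no filter, a replicate block, a model of only the groups compared, DESeq2 1.42.0 and leaving out each library.

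Members were named where called with a log2 fold change of 1 or more in size, the 8 largest per comparison, with called partners of the same ligand and receptor pair, and for the other pathway genes the 4 largest. Sema4g, Slit3, Ephb4, Epha10 and other genes outside this rule were chosen after their values were seen. The members and lists were chosen with earlier results of these data known. Gene positions are from GENCODE M21 (GRCm38), in which all 68 symbols matched, and promoters from RefSeq (GRCm38.p6), trimmed where an annotated exon begins.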

Additional observations from a re-analysis of the deposited data

Results flagged for a closer look

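The response to Gdf11 differed between genotypes for 4 guidance genes by the interaction test of edgeR over all genes. The difference (Nr6a1-/- response minus wildtype response, log2) was 4.20 for Sema3c (FDR = 0.001241), 0.956 for Nrp2 (FDR = 0.0002918), -0.9725 for Sema6a (FDR = 0.006541) and -1.04 for Ephb4 (FDR = 0.04727). The first 3 stayed called under all 18 alternatives. Ephb4 did not under 12 of them, at values from -1.09 to -0.65 where the call was lost, the latter without d4 Nr6a1-/- replicate 3. The d4 Nr6a1-/- libraries that enter the Sema3c value held 5 counts of it in all.

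The change from d2 to d3 differed between genotypes for 2 genes, Epha1 (2.09, FDR = 0.01622) and Plxnb2 (-1.01, FDR = 0.01445). Without d2 wildtype replicate 2 neither was called (1.87 and -0.85).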

How the results depend on the processing

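Of 142 calls of guidance genes over the 12 comparisons, 92 kept their direction and their call under every alternative run, 50 lost the call under at least 1, and 0 reversed. RLE factors lost 0, no normalisation factors 2, no filter 14, a model of only the groups compared 9 of 131, DESeq2 17 of 141, and leaving out single libraries 160 of 888. The count at d2 was 2, with 1 when low counts were not filtered and 0 to 2 over left-out libraries. At d2.5 it was 7, with 4 to 7, and at d4G 10, with 6 when only the groups compared were fitted and 7 to 10 over left-out libraries. For the change from d2 to d3 it was 2, with 1 by DESeq2 and 0 to 2 over left-out libraries, and for the Gdf11 response in Nr6a1-/- cells 20, with 12 to 17. The cause was not tested. Of 42 calls of other pathway genes refitted, an alternative chosen after seeing the data, 31 kept the call, 11 lost it under at least 1 alternative, and 0 reversed.

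Replicate numbers did not pair the samples in most comparisons. Deviations of same-numbered libraries correlated at -0.298 to 0.391, with 11 of 30 pairs over 0.1, and every library correlated best with its own number in 1 of 10 comparisons. In the Gdf11 response of wildtype cells, which held the highest value, they were 0.328, 0.0384 and 0.391 for replicates 1 to 3. The replicate block lost 1 of the 142 calls, Efna2 in the Gdf11 response of Nr6a1-/- cells (0.88, FDR = 0.0542), which gave 19 in place of 20 there, and left the other calls.

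Depth limits the members near a count of 0, where 0 counts allow up to 1.91 CPM. Some differences of Sema3a, Sema3c, Sema4f, Sema6c, Sema5b and Slit1 thus rest on 3 to 5 counts in their low group.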
